A study of Caenorhabditis elegans with 16 samples.

Results

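The 8 *syp-2::AID* libraries of a 16-library whole-worm RNAseq experiment were described here across all genes that passed a low-count filter. Of these, 4 came from *syp-2::AID* worms placed for 4 h on plates with 4 mM auxin, and 4 came from *syp-2::AID* worms on plates without auxin. The auxin-inducible degron (AID) brings SYP-2, a protein of the central region of the synaptonemal complex, under the control of TIR1, a plant protein that marks a degron-tagged target for destruction when auxin is present. TIR1 is made from the *ieSi38* transgene under the *sun-1* promoter, which drives expression in the germline, and both *syp-2::AID* groups carry it. All worms were young adults at 18 to 24 h after the L4 stage, pooled within each replicate, and grown on *E. coli* OP50. The other 8 libraries, 4 from auxin plates and 4 untreated, came from N2, the wild-type strain, which has neither tag nor TIR1, and they are used only to set the response of *syp-2::AID* worms beside that of worms in which auxin has no tagged target. Since the sources used here do not say whether solvent was added to control plates, every auxin effect below is an effect of the auxin plates. RNA from whole worms mixes the germline with all other tissues, and a lower level in fewer cells cannot be told apart from less RNA per cell.

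Auxin is a plant hormone, and for a worm it is a foreign small molecule. Nematodes, like other animals, handle such compounds in steps: cytochrome P450s, flavin monooxygenases and short-chain dehydrogenases oxidise or reduce them, UDP-glucuronosyltransferases (UGTs) and glutathione S-transferases (GSTs) attach a sugar or glutathione, and ABC transporters move the products across membranes. Many of these genes are induced by their substrates through nuclear hormone receptors and the stress factor SKN-1, chiefly in the intestine. The degron system, in contrast, acts after translation, and the transcript of the tagged gene is not its target.

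Total counts of the *syp-2::AID* libraries were 14668136 to 16334961 with auxin and 15753730 to 18741524 without it. The *syp-2* transcript was at 28.8, 24.8, 24.2 and 24.4 CPM (the count relative to the scaled library total) in auxin replicates 1 to 4, against 23.2, 27.6, 25.5 and 26.3 CPM in the untreated replicates. The groups overlapped and the log2 fold change was -0.01 (standard error, SE, 0.11; edgeR's quasi-likelihood test, adjusted p = 0.977), and since auxin acts on the protein this transcript is no check of the labels. Its sign turned to positive under several alternatives. None of the tested markers of 10 tissues and stages (germline, oocyte, sperm, early embryo, intestine, body wall muscle, hypodermis, pharynx, neurons and adult stage) passed the test, and only 1 of 6 sperm and 1 of 7 early embryo markers had enough counts to be tested.

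Auxin replicates 3 and 4 stood apart from replicates 1 and 2. On the first principal component, which held 56% of the variance of log2 CPM, they lay at 52.5 and 61.5, whereas the other 6 libraries lay between -28.3 and -4.95. Counts of replicates 1 and 2 differed by 2.95 times the sampling noise (chi-square over its degrees of freedom), and either of them differed from either of replicates 3 and 4 by 97.8 to 132.5 times. The untreated libraries split by the same numbers, far less widely. They differed by 8.75 times between replicates 1 and 2, 3.75 times between 3 and 4, and 14.6 to 17.3 times across these pairs. The ratio of each auxin library to the untreated mean followed exon length in replicates 3 and 4, with Spearman's rho of -0.54 and -0.62 across 10990 genes, and hardly in replicates 1 and 2, with -0.02 and 0.10. Genes are not independent replicates and share their libraries, so no p-value is given. In 5 classes of genes by exon length, the shortest was at a median log2 ratio of 0.47 and 0.57 in replicates 3 and 4, and the longest at -0.52 and -0.69. Summed over 5 markers each, body wall muscle was at 2764, 2888, 1208 and 1256 CPM in auxin replicates 1 to 4 and at 2422 to 3239 CPM in untreated libraries, and intestine at 46600, 46876, 35339 and 31281 CPM with auxin and at 51437 to 62198 CPM without it. Other sets went the other way: hypodermis and cuticle markers summed to 6484, 6465, 9435 and 11352 CPM with auxin and 5817 to 7174 CPM without it. Neuron and sperm markers were also higher in replicates 3 and 4 than in 1 and 2. Those of germline, oocyte, pharynx and adult stage were lower, and early embryo markers followed neither direction. No batch is named for these libraries in the labels, and the part of length and of tissue markers in the results was not tested. Results below are therefore given with all 8 libraries and, where it matters, without auxin replicates 3 and 4 but with all 4 untreated libraries kept.

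**Figure D1:**
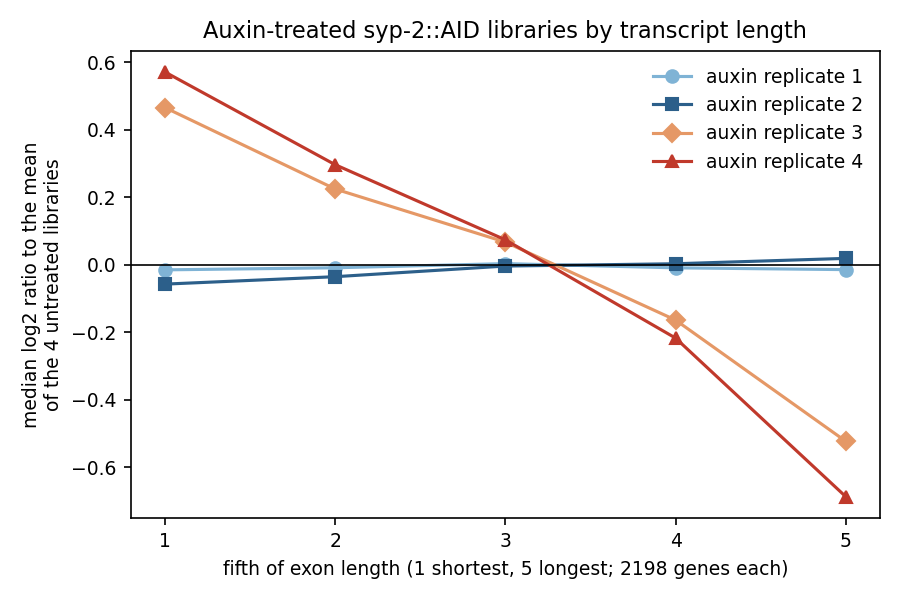
Median log2 ratio of each auxin-treated *syp-2::AID* library to the mean of the 4 untreated libraries (y axis), in 5 equal classes of genes by exon length (x axis, shortest to longest). Replicates 1 and 2 stay near 0, and replicates 3 and 4 run from 0.47 and 0.57 to -0.52 and -0.69.

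In total 11291 genes passed the filter, and the words rose and fell are kept for genes at an adjusted p under 0.05 (edgeR, Benjamini and Hochberg method). Of these genes 304 rose (2.69%) and 89 fell (0.788%), 3.48% in all. Named rises numbered 303, since 1 of the genes has a date made by a spreadsheet in place of its name. Of the named genes, 227 rose at least 2-fold and 78 at least 4-fold, whereas 53 fell at least 2-fold and 13 at least 4-fold. In each of the called genes the 4 auxin libraries lay wholly above or below the 4 untreated ones, as they did in 13.6% of all genes. For a single gene of this kind, exact permutation of the libraries (two-sided) gives p = 0.029, and no smaller value can be had with 4 libraries in each group. Without auxin replicates 3 and 4, 371 genes rose (3.15%) and 152 fell (1.29%) of 11781 tested. The fits with and without these libraries shared 260 rises and 77 falls, and no called gene changed direction. Leaving out 1 untreated library lowered the number of calls most, to 259 without replicate 1 and 260 without replicate 3.

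From the shortest to the longest of the 5 exon-length classes, 67, 73, 100, 48 and 12 genes rose with all libraries, and 61, 72, 109, 75 and 35 rose without auxin replicates 3 and 4. The median log2 fold change over the same classes was 0.29, 0.13, 0.04, -0.09 and -0.28 with all libraries, and lay between -0.03 and 0.02 without these 2. Over all genes tested the median log2 fold change was 0.01 in both fits. Of the genes tested on chromosome V, 5.92% rose and 1.58% fell, against 1.24% and 0.215% on chromosome I.

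Called members are counted in the lists below, and of all genes tested 2.69% rose and 0.788% fell. Without auxin replicates 3 and 4 these shares were 3.15% and 1.29%. Among the gene lists described, the *cyp-35* cytochrome P450s had the highest median log2 fold change, 3.47, and 6 of 7 tested members rose. These enzymes are known as xenobiotic-inducible oxidases of the intestine, and all 7 genes lie on chromosome V. *cyp-35A3* was at 33.6, 28.6, 28.6 and 33.5 CPM in auxin replicates 1 to 4, against 0.567, 0.374, 0.551 and 0.915 CPM in the untreated replicates. The lowest treated library was thus far above the highest untreated one, and replicates 3 and 4 did not stand apart. Its log2 fold change was 5.69 (SE 0.23, adjusted p = 2.39e-06, edgeR). *cyp-35A4* was at 6.97, 5.35, 6.08 and 11.7 CPM with auxin, against 0.252, 0.107, 0.165 and 0.122 CPM without it, a log2 fold change of 5.49. *cyp-35C1* was at 101, 103, 96.6 and 123.1 CPM with auxin and at 7.88, 9.88, 9.59 and 10.8 CPM without it, a log2 fold change of 3.47. No treated library reached down to the untreated range in any of these genes.

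*cyp-35A2* and *cyp-35A5* rose by a log2 fold change of 2.99 and 3.2, and averaged 67.2 ± 7.28 and 24.2 ± 2.89 CPM with auxin against 8.45 ± 1.15 and 2.63 ± 0.425 CPM without it (SD, n = 4 each). *cyp-35B1* was low, at 1.32 to 1.74 CPM with auxin and at 0 to 0.214 CPM without it, and it may share reads with the overlapping gene K07C6.16 if strand was not used in counting. The only tested member that did not pass was *cyp-35D1*, at 4.24, 3.80, 3.33 and 3.82 CPM with auxin and 2.46, 1.34, 3.09 and 2.62 CPM without it (log2 fold change 0.68, adjusted p = 0.225, edgeR). The counts of such close relatives can share reads, and how multi-mapped reads were counted is not given in the sources used here.

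**Figure D2:**
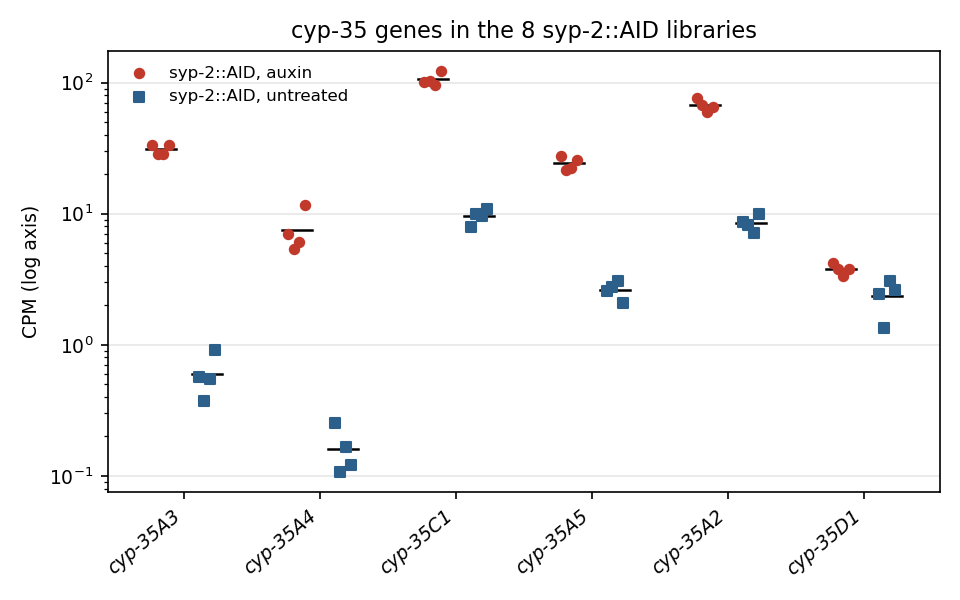
CPM (log axis) of 6 *cyp-35* genes in each auxin-treated (red circles) and untreated (blue squares) *syp-2::AID* library, with group means as black bars. *cyp-35B1*, with 0 counts in some untreated libraries, is not drawn, and auxin replicates lie above all untreated libraries in each gene shown.

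Outside *cyp-35*, 17 of 46 tested P450s rose and none fell, with a median log2 fold change of 0.69. In *cyp-13A*, 5 of 8 tested genes rose, in *cyp-25A* 3 of 4, in *cyp-33C* 2 of 6 and in *cyp-34A* 2 of 7, whereas none of the 3 tested genes of *cyp-31A* and none of the 3 of *cyp-14A* passed. *cyp-13A12* was at 9.76, 8.32, 8.25 and 8.54 CPM with auxin, against 0.630, 0.748, 0.662 and 0.732 CPM without it, a log2 fold change of 3.64 (SE 0.18, adjusted p = 4.23e-06, edgeR). *cyp-34A9*, *cyp-34A10* and *cyp-33C8* rose by log2 fold changes of 2.50, 2.50 and 2.11. Of these, *cyp-34A9* overlaps B0213.24 on the opposite strand.

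Among the other oxidising and reducing enzymes, 3 of 5 flavin monooxygenases and 9 of 28 short-chain dehydrogenases rose, and none fell. *dhs-23*, a short-chain dehydrogenase, was at 7.15, 5.74, 6.22 and 6.52 CPM with auxin and at 0.819, 0.694, 0.441 and 0.610 CPM without it (log2 fold change 3.31, adjusted p = 3.48e-05, edgeR). *dhs-20* and *dhs-2* rose by 2.58 and 1.90 on the log2 scale, and both share exonic sequence with other annotated genes. *fmo-5* averaged 34.1 ± 1.81 CPM with auxin and 15.9 ± 1.23 CPM without it (SD, n = 4 each), and its log2 fold change was 1.1.

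*fmo-2*, a flavin monooxygenase known as a target of the hypoxia and longevity pathways, split the auxin replicates. It was at 7.67, 7.61, 0.796 and 2.15 CPM in auxin replicates 1 to 4, against 0.063, 0.214, 0.441 and 0.671 CPM in the untreated replicates. Auxin replicates 1 and 2 were high, whereas replicate 3 lay just above the untreated libraries. The log2 fold change was 3.69 (SE 0.79, adjusted p = 0.0336, edgeR), and 4.46 (adjusted p = 5.2e-05) without replicates 3 and 4. With all other libraries kept, the call was lost without auxin replicate 1 (adjusted p = 0.0577) or 2 (0.0510) and without any 1 untreated library (0.0624 to 0.127). A list of 11 genes of the hypoxia and hydrogen sulphide response was grouped after their values were seen. In it 1 rose and 2 fell, against 2.69% and 0.788% of all genes tested, and the counts are a description only. The rise was that of *cysl-2*, a cyanoalanine synthase, at 76.0 to 103 CPM with auxin and 41.2 to 46.3 CPM without it (log2 fold change 1.03). *rhy-1*, a regulator of the hypoxia factor HIF-1, fell by 1.41 on the log2 scale. *cysl-2* overlaps *vnut-1* and *rhy-1* overlaps W07A12.8.

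Conjugating enzymes followed the same direction. Of 51 tested UGTs 17 rose and none fell (median log2 fold change 0.64), and of 35 tested GSTs 13 rose and 1 fell (median 0.68). Without auxin replicates 3 and 4, 1 UGT and 2 GSTs fell. *gst-5*, a glutathione S-transferase, was at 110, 112, 90.9 and 107 CPM with auxin and at 18.8, 17.4, 21.3 and 17.4 CPM without it, a log2 fold change of 2.49 (SE 0.12, adjusted p = 3.53e-06, edgeR). *gst-4*, widely used as a reporter of SKN-1 activity, was at 34.2, 27, 29.2 and 40.4 CPM with auxin against 7.81, 8.28, 12.6 and 12.3 CPM without it (log2 fold change 1.68, adjusted p = 0.00135). No treated library fell within the untreated range in either gene. *gst-6* and *gstk-1* rose by 1.70 and 1.11 on the log2 scale. The exception was *gsto-1*, an omega-class member, at 2.50 to 2.97 CPM with auxin and 5.39 to 8.17 CPM without it (log2 fold change -1.36, adjusted p = 0.00267). *gst-5*, *gst-4* and *gsto-1* overlap *nos-1*, *dhs-12* and *kle-2*.

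Among the UGTs, *ugt-22* was at 192, 184, 134 and 154 CPM with auxin and at 44.5, 46.0, 48.4 and 43.8 CPM without it. Replicates 3 and 4 were the lower of the treated libraries, and the log2 fold change was 1.86 with all libraries (adjusted p = 4.47e-05, edgeR) and 2.07 without these 2. *ugt-19*, *ugt-52* and *ugt-1* rose by 1.62, 1.85 and 1.79 on the log2 scale, at lower levels of 4.85 to 19.9 CPM with auxin. *ugt-22* overlaps *srz-29* on the opposite strand.

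Of 45 tested ABC transporters 3 rose and 1 fell, as compared with 7 and 2 when auxin replicates 3 and 4 were left out. *pgp-1*, a P-glycoprotein of the ABC family that exports small molecules, was at 142.04, 180, 71.3 and 70.5 CPM with auxin, against 19.2, 18.7, 17.1 and 23.5 CPM without it. Its log2 fold change was 2.56 (SE 0.31, adjusted p = 0.00137, edgeR), and 3.06 without replicates 3 and 4, in which it was lowest among the treated libraries. Of 150 tested nuclear hormone receptor genes 7 rose and none fell (median log2 fold change 0.20), and 10 rose and 1 fell without auxin replicates 3 and 4. Over all genes tested 2.69% rose and 0.788% fell, and 3.15% and 1.29% without these 2 libraries. The receptor counts are not far from these shares and are given as a description only. *nhr-202* and *nhr-11* each rose by 1.63 on the log2 scale, to a mean of 10.0 ± 2.19 and 7.88 ± 1.92 CPM with auxin against 3.24 ± 0.605 and 2.54 ± 0.657 CPM without it (SD, n = 4 each). *nhr-202* overlaps *nhr-201*, its relative on the same strand.

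Peroxisomal beta-oxidation shortens the side chains of ascarosides, the pheromones of the worm. Of 13 genes tested in this list, 6 rose and none fell with all libraries, and 8 rose without auxin replicates 3 and 4. F58F9.7, named *acox-3* in the current annotation after the acyl-CoA oxidases that open the cycle, was at 65.9, 55.8, 60.5 and 53.2 CPM with auxin, against 13.4, 10.8, 15.4 and 14.9 CPM without it (log2 fold change 2.11, SE 0.14, adjusted p = 3.21e-05, edgeR). The gene listed as *acox-1*, a name that matched no single gene of the current annotation, rose by 0.90 on the log2 scale, at 86.0, 76.6, 61.4 and 58.6 CPM with auxin and 35.3 to 39.6 CPM without it. The later steps moved likewise: *maoc-1*, the enoyl-CoA hydratase, rose by 1.5, *dhs-28*, the hydroxyacyl-CoA dehydrogenase, by 1.12, and *daf-22*, the thiolase that ends the cycle, by 1.35 on the log2 scale. *daf-22* was at 170, 166, 200 and 197 CPM with auxin and at 80.2, 68.6, 75.2 and 63.8 CPM without it. *maoc-1* overlaps E04F6.6 and *dhs-28* overlaps *gei-15*.

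Catalases, which remove the hydrogen peroxide that acyl-CoA oxidases release, rose as well. *ctl-2*, the peroxisomal catalase, was at 138, 125.6, 148 and 120 CPM with auxin, against 72.9, 56.7, 62.7 and 60.4 CPM without it (log2 fold change 1.08, adjusted p = 0.000588, edgeR). *ctl-1* and *ctl-3* rose by 1.02 and 0.86. The 3 catalase genes are close relatives and may share reads. In the wider list of 26 oxidative stress enzymes, 4 rose and 3 fell. Among the falls was *msra-1*, which repairs oxidised methionine, at 65.2, 65.8, 113 and 106 CPM with auxin and 297, 279, 338 and 333 CPM without it. Auxin replicates 1 and 2 were the lowest libraries, and the log2 fold change was -1.84 (SE 0.20, adjusted p = 0.000681) with all libraries and -2.22 without replicates 3 and 4. *ctl-2* overlaps Y54G11A.7 and *msra-1* overlaps *insc-1*.

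In the list of fatty acid activation and general beta-oxidation, 9 of 48 tested genes rose and 2 fell, against 15 and 4 without auxin replicates 3 and 4. *acs-7*, an acyl-CoA synthetase, was at 35.9, 31.5, 53.2 and 53.4 CPM with auxin, against 8.57, 7.58, 9.15 and 10.1 CPM without it (log2 fold change 2.30, adjusted p = 0.000215, edgeR), and overlaps C01G6.9. *acs-14* averaged 55.2 ± 2.0 CPM with auxin and 23.4 ± 1.21 CPM without it (SD, n = 4 each), and *ech-1*, an enoyl-CoA hydratase, rose by 2.09 on the log2 scale at 2.89 to 4.79 CPM with auxin. The falls were *hacd-1*, a hydroxyacyl-CoA dehydrogenase, and *acdh-1*, an acyl-CoA dehydrogenase of the propionate shunt. *hacd-1* was at 30.2, 29.8, 26.5 and 31.5 CPM with auxin and at 101, 90.1, 87.9 and 75.0 CPM without it, a log2 fold change of -1.58 (SE 0.12, adjusted p = 5.81e-05). *acdh-1* averaged 331 ± 46.3 CPM with auxin and 645 ± 91.1 CPM without it (SD, n = 4 each), and its log2 fold change was -0.96.

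The ABC transporter that fell was *pmp-5*, a relative of the transporters that carry fatty acids into peroxisomes. It was at 17.7, 17.3, 30.4 and 30.1 CPM with auxin, against 81.4, 81.9, 87.4 and 82.2 CPM without it, and its log2 fold change was -1.80 (SE 0.20, adjusted p = 0.000787, edgeR). Of 19 genes of fatty acid desaturation and synthesis, *fat-7*, a delta-9 desaturase, alone fell with all libraries, at 178 to 238 CPM with auxin and 380 to 425 CPM without it (log2 fold change -0.91, adjusted p = 0.00195). Without auxin replicates 3 and 4, 4 genes of this list fell. Among all genes tested 0.788% fell with all libraries and 1.29% without these 2.

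Genes of lysosomal lipid handling were not among the first lists and were grouped after their values were seen. *gba-2*, a glucocerebrosidase homologue, was at 27.7, 32.9, 19.1 and 19.6 CPM with auxin and at 0.756, 0.534, 0.937 and 0.732 CPM without it, a log2 fold change of 5.06 (SE 0.27, adjusted p = 5.84e-06, edgeR). *gba-1*, its neighbour with which it overlaps on the opposite strand, was at 25.5 to 38.2 CPM with auxin and 9.43 to 14 CPM without it (log2 fold change 1.45). *asah-1*, which encodes an acid ceramidase, rose by 1.46. Of 20 lysosomal glycosidase, ceramidase and membrane protein genes, 7 rose and none fell, with a median log2 fold change of 0.13. Of other lists grouped in this way, 7 of 27 carboxylesterases and 2 of 11 peroxins (1 without auxin replicates 3 and 4) rose, and 4 of 12 aspartyl protease genes fell. Among all genes tested 2.69% rose and 0.788% fell, and the small peroxin count is a description only. Of 9 fatty acid binding protein genes, 3 rose and none fell, among them *lbp-8*, known in worms as a lysosomal lipid messenger (log2 fold change 3.19, at 0.813 to 1.88 CPM with auxin), and *lbp-7* (1.62).

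**Figure D3:**
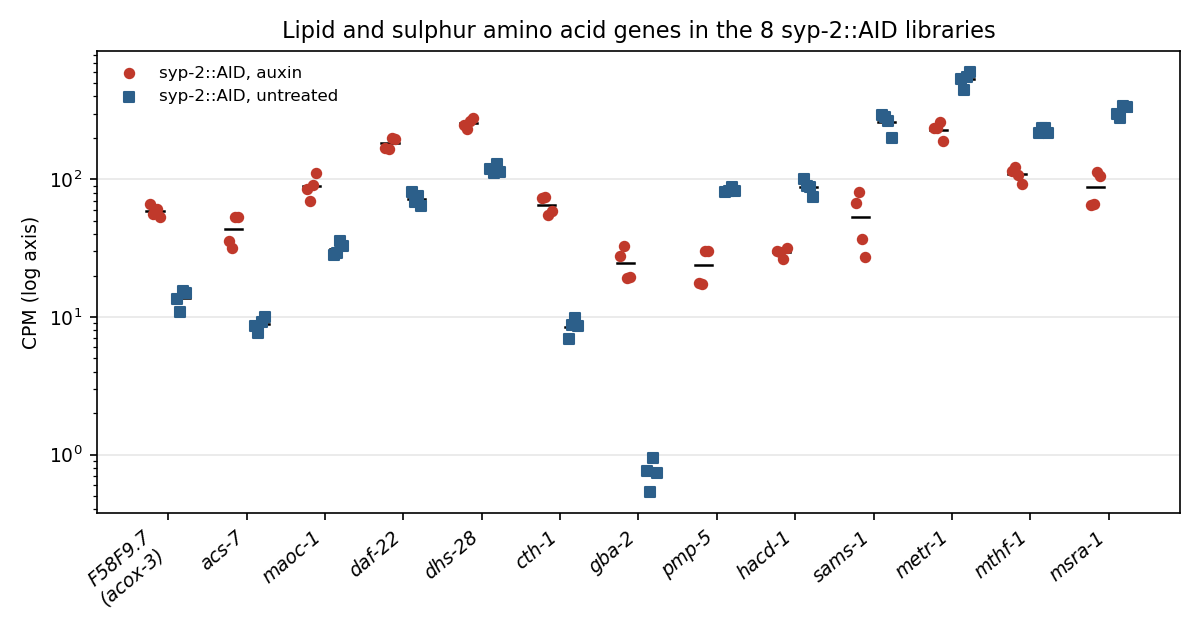
CPM (log axis) of 13 genes of lipid and sulphur amino acid metabolism in the 4 auxin-treated (red circles) and 4 untreated (blue squares) *syp-2::AID* libraries, with group means as black bars. From *F58F9.7* to *gba-2* all treated libraries lie above the untreated ones, and from *pmp-5* to *msra-1* all lie below.

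The methionine cycle makes the methyl donor S-adenosylmethionine, and transsulphuration leads homocysteine on to cysteine. Of 22 tested genes of these steps and of phosphatidylcholine synthesis, 5 fell and 2 rose. *sams-1*, an S-adenosylmethionine synthetase, was at 67.1, 80.6, 36.7 and 27.3 CPM with auxin, against 294, 284, 265 and 198 CPM without it. All treated libraries were under the lowest untreated one, most of all replicates 3 and 4, and the log2 fold change was -2.30 (SE 0.32, adjusted p = 0.00303, edgeR) with all libraries and -1.79 (adjusted p = 0.00133) without these 2. *metr-1*, the methionine synthase, was at 235, 234, 261 and 190 CPM with auxin and at 535, 446, 553 and 605 CPM without it (log2 fold change -1.22, adjusted p = 0.000767). *mthf-1*, the folate reductase that supplies its methyl group, was at 114, 124, 108 and 93.1 CPM with auxin and at 218, 236, 238 and 217 CPM without it (log2 fold change -1.05), and overlaps C06A8.6. The opposite movement was that of *cth-1*, a cystathionine gamma-lyase of transsulphuration. It was at 73.4, 74.1, 55.0 and 58.9 CPM with auxin, against 6.87, 8.70, 9.76 and 8.66 CPM without it, a log2 fold change of 2.94 (SE 0.16, adjusted p = 5.84e-06).

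Metallothioneins and CDR proteins are part of the response of the worm to cadmium. Of 10 tested metallothionein and cadmium-response genes 5 rose and none fell. *cdr-1*, the cadmium-responsive gene of the intestine, was at 1.68, 1.29, 2.1 and 2.71 CPM with auxin and at 0.315, 0.160, 0.110 and 0.122 CPM without it (log2 fold change 3.42, adjusted p = 0.00117, edgeR), and *cdr-2* and *cdr-4* rose by 1.62 and 1.45. *ftn-1*, a ferritin that stores iron, was at 2.32 to 3.33 CPM with auxin and 0.315 to 0.992 CPM without it (log2 fold change 2.18, adjusted p = 0.0053). Of 5 tested heme-responsive *hrg* genes, grouped after their values were seen, 3 fell. *hrg-1*, a heme transporter of endosomal membranes, was at 8.13, 9.41, 8.68 and 6.66 CPM with auxin and at 19.5, 16.4, 26.8 and 24.8 CPM without it, a log2 fold change of -1.41 (adjusted p = 0.00243). *hrg-2* and *hrg-4*, under 1 CPM in every treated library, fell by 2.48 and 1.91 on the log2 scale. Without untreated replicate 3 *hrg-2* did not pass (adjusted p = 0.0592), nor did *hrg-4* without any 1 untreated library (adjusted p = 0.0501 to 0.0582).

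Genes with roles at surfaces and in immunity moved both ways. Of 69 tested C-type lectin genes 10 rose and 3 fell, and of 72 tested genes of lysozymes, saposin-like proteins and antimicrobial peptides 6 rose and 2 fell. Without auxin replicates 3 and 4, 10 lectin genes rose and 6 fell, and 4 genes of the other list rose and 4 fell, its median log2 fold change being 0.07 in place of 0.47. With the length trend removed, 10 genes of that list rose and 5 fell. *clec-210* was at 14, 14.6, 14.5 and 18.4 CPM with auxin and at 2.84, 2.51, 2.43 and 3.05 CPM without it (log2 fold change 2.50, adjusted p = 2.58e-05, edgeR), whereas *clec-4* fell, at 1.22 to 2.92 CPM with auxin and 5.18 to 5.61 CPM without it. *spp-8*, a saposin-like gene, rose by 1.25 on the log2 scale. *lys-6*, a lysozyme, and ZK6.11, named *irg-8* after its response to infection, fell by 1.45 and 0.90. *clec-210* overlaps *srt-56* on the opposite strand.

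The antimicrobial peptide gene *nlp-34*, expressed in the epidermis, was at 8.19, 11.1, 34.9 and 36.9 CPM in auxin replicates 1 to 4, against 3.15, 1.28, 2.37 and 2.81 CPM in the untreated replicates. Replicates 3 and 4 were the high ones, and the log2 fold change was 3.24 (adjusted p = 0.00797, edgeR) with all libraries and 2.04 (adjusted p = 0.00104) without them. The exon-length trend moved with these libraries and its part in the value was not tested. With the trend removed the log2 fold change of *nlp-34* was 2.76. *nlp-25*, listed with the neuropeptides, had the same shape, at 3.66, 3.03, 11.5 and 11.7 CPM with auxin and 0.587 to 1.07 CPM without it (log2 fold change 3.18, and 2.06 without replicates 3 and 4).

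Of 96 tested cuticle collagen genes, 3 fell and none rose, and without auxin replicates 3 and 4 only 1 fell. Over all genes tested 0.788% fell and 2.69% rose with all libraries, and 1.29% fell without these 2. *col-74* was at 0.232, 0.387, 0.289 and 0.0694 CPM with auxin, and the untreated libraries were themselves far apart, at 1.01, 2.4, 8.38 and 6.4 CPM. Its log2 fold change of -4.17 (adjusted p = 0.0119, edgeR) was not past the threshold without auxin replicates 3 and 4 (adjusted p = 0.259). *col-149* was steadier, at 0.486 to 0.723 CPM with auxin and 3.09, 2.08, 3.14 and 3.11 CPM without it (log2 fold change -2.18, adjusted p = 0.00112). *col-74* overlaps *gtap-1* and *col-149* overlaps B0024.15.

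Many of the largest rises belong to genes known mostly by a sequence name. F44G3.2, named *argk-1* after the arginine kinases in the current annotation, was at 17.4, 15.8, 19.7 and 22 CPM with auxin, against 0.126, 0.214, 0.331 and 0.122 CPM without it. Its log2 fold change of 6.48 (SE 0.27, adjusted p = 2.39e-06, edgeR) was the largest of any called gene with a count in the untreated libraries and at least 1 CPM on average. K12D9.1 had no count in any untreated library and 4.71, 2.77, 1.52 and 1.87 CPM with auxin, at least 62.6-fold higher when the untreated group is set at 3 counts in all. T16G1.6 was at 32.8, 32.7, 25.4 and 26.5 CPM with auxin and at 0.504, 0.427, 1.38 and 1.1 CPM without it (log2 fold change 5.09). Others were K05B2.4 (4.60), F37H8.3 (4.07), C40H1.8 (3.94), F58B4.5 (2.78) and C10C5.4 (1.27), with all treated libraries above all untreated ones. F37H8.3 overlaps *lir-3* and F58B4.5 overlaps F17C11.12. Among the falls, C30G12.2 was at 2.56, 1.22, 5.06 and 4.79 CPM with auxin and at 21.3, 15.5, 17.6 and 16.4 CPM without it (log2 fold change -2.39). *pcp-3*, a member of the prolyl carboxypeptidase family, was at 7.84, 8.06, 4.27 and 3.61 CPM with auxin and at 22.5, 23.2, 25.5 and 22.3 CPM without it (log2 fold change -1.97).

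Several lists held no called gene, and 3.48% of all genes tested were called. At that share a small list may hold none, so a lack of calls does not set it apart from other genes. None of 18 cytosolic heat shock protein genes, 21 genes of the unfolded protein response of the endoplasmic reticulum, 13 of that of mitochondria, 33 proteasome subunits and 24 core genes of cullin ligases passed the test. The last pair of lists holds the machinery through which TIR1 acts. At an unadjusted p under 0.05, these lists held 1, 5, 3, 0 and 2 genes, and 2047 of all 11282 named genes tested were under it. Without auxin replicates 3 and 4, 1 heat shock protein gene fell. The same was true of the genes of the germline: none passed among 8 of the central region of the synaptonemal complex, 33 of recombination repair and crossovers, 29 of P granules and germline RNA regulation and 21 of oocyte growth, of which 1, 1, 2 and 1 had an unadjusted p under 0.05. Median log2 fold changes of the list of P granule and oocyte genes were -0.23 and -0.21 with all libraries and 0.02 and 0.00 without auxin replicates 3 and 4. A like shift was seen in 33 genes of body wall muscle (-0.38 against -0.09) and 18 of the extracellular matrix (-0.51 against -0.01), and the opposite one in 77 ribosomal protein genes (0.34 against -0.14). No member of these 3 lists passed in either fit.

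**Figure D4:**
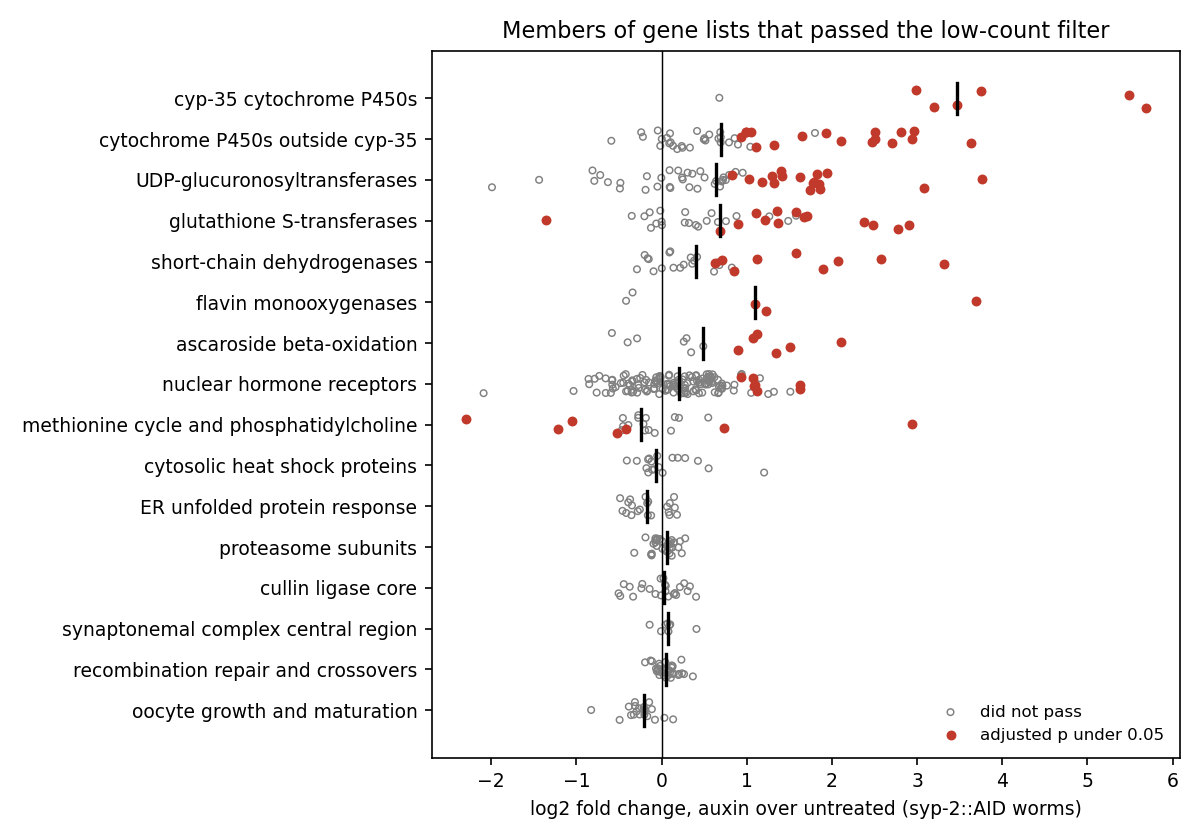
Log2 fold change (auxin over untreated, *syp-2::AID* worms) of each tested member of 16 gene lists. Red points passed at an adjusted p under 0.05, grey circles did not, and black bars are list medians, which run from 3.47 for *cyp-35* genes to -0.24 for the methionine cycle and phosphatidylcholine genes.

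*egl-1*, which encodes the BH3-only protein that starts apoptosis in the worm, was the only one of 8 tested genes of the core apoptotic pathway to change. It was at 2.56, 3.16, 5.35 and 2.71 CPM with auxin, against 0.315, 0.534, 0.827 and 0.549 CPM without it, and no library overlapped between the groups. Its log2 fold change was 2.60 (95% interval 1.8 to 3.40, adjusted p = 0.0028, edgeR), and 2.36 (adjusted p = 0.0015) without auxin replicates 3 and 4. None of 11 genes of cell corpse engulfment passed. Of 26 tested zygotic genes of the early embryo, *sdz-8* alone rose, at 2.24 to 3.68 CPM with auxin and 0.693 to 1.16 CPM without it (log2 fold change 1.70). Over all genes tested 2.69% rose and 3.48% passed, so neither count sets its list apart.

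Most of the response was also present in N2 worms, tested on their own 8 libraries. Of the 303 named rises in *syp-2::AID* worms, 293 were tested in N2 worms. There 237 also rose (78.2% of all 303 *syp-2::AID* rises and 34.6% of the 684 named N2 rises). Of the 89 falls, 82 were tested in N2 worms and 50 also fell there (56.2% of all 89, and 9.17% of the 545 N2 falls). No gene moved in opposite directions past both thresholds. In N2 worms 6.17% of 11101 genes rose and 4.91% fell. The N2 total of 1230 became 549 without auxin replicate 1, 650 without auxin replicate 3, 710 without untreated replicate 2, 615 without untreated replicate 3 and 2418 without untreated replicate 4.

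Median log2 fold changes of the *cyp-35* genes, the UGTs and the GSTs were 3.47, 0.64 and 0.68 in *syp-2::AID* worms, against 3.09, 0.49 and 0.53 in N2 worms. Those of the flavin monooxygenases and the ABC transporters were 1.1 and -0.10 in *syp-2::AID* worms, against 0.71 and 0.18 in N2 worms, and no test of these medians was made. Without auxin replicates 3 and 4 these medians in *syp-2::AID* worms were 0.92 and 0.13. With the length trend removed they were 1.15 and 0.13, so the sign of the ABC transporter median depended on these libraries and on that trend. *cyp-35A3* rose by 5.69 in *syp-2::AID* worms and by 4.25 in N2 worms, a difference of 1.46 that did not pass the test of the difference (adjusted p = 0.174, edgeR, all 16 libraries). *cth-1* rose by 2.94 in *syp-2::AID* worms and by 3.27 in N2 worms (difference -0.30, adjusted p = 0.499). *sams-1* had log2 fold changes of -2.30 and -1.56 in *syp-2::AID* and N2 worms (difference -0.71, adjusted p = 0.363). F44G3.2 rose by 6.48 in *syp-2::AID* worms and 6.4 in N2 worms.

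**Figure D5:**
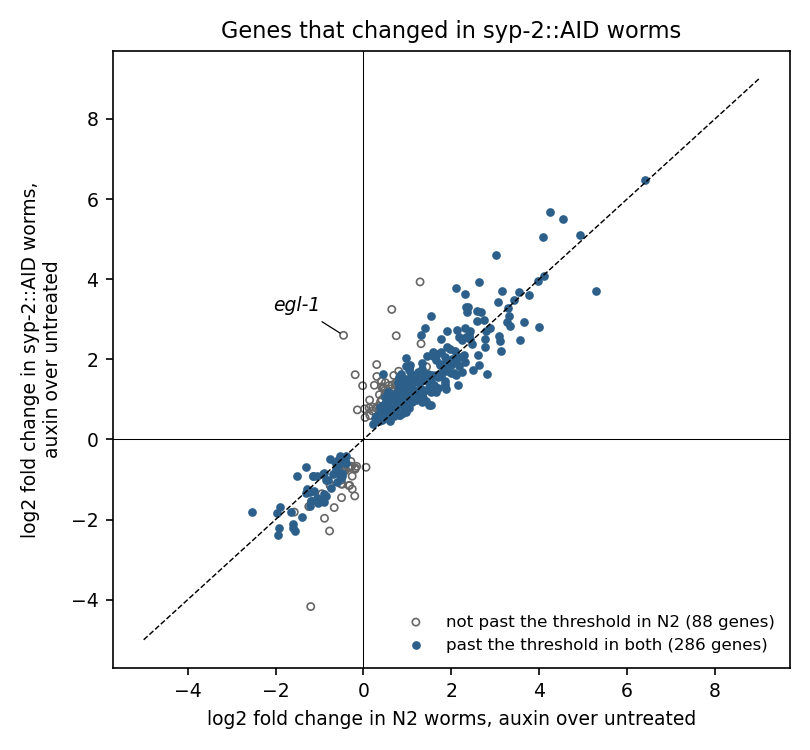
Log2 fold change of 374 genes called in *syp-2::AID* worms (y axis) and of the same genes in N2 worms (x axis), with 286 called in both as filled points and 88 called in *syp-2::AID* worms alone as open circles. The dashed line marks equal values, and *egl-1* lies at 2.60 in *syp-2::AID* and -0.45 in N2 worms. Called genes not tested in N2 worms are not drawn, nor is K12D9.1, which had no count in untreated *syp-2::AID* worms.

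Across all 11776 genes the response differed between the strains in 2 genes (0.017%), with 2069 at an unadjusted p under 0.05. *egl-1* had a log2 difference of 3.08 (SE 0.47, adjusted p = 0.0304, edgeR), from a log2 fold change of 2.60 in *syp-2::AID* and -0.45 in N2 worms. *cht-1*, a chitinase gene, had a log2 difference of -2.09 (SE 0.30, adjusted p = 0.0304). *cht-1* was at 24.2, 23.3, 20.1 and 22.1 CPM in auxin-treated and 27.7, 27.8, 37.1 and 40.6 CPM in untreated *syp-2::AID* worms, and averaged 51.5 ± 17.9 CPM in auxin-treated and 17.5 ± 3.22 CPM in untreated N2 worms (SD, n = 4 each). Within *syp-2::AID* worms the log2 fold change of *cht-1* was -0.57 and did not pass (adjusted p = 0.0883). *cht-1* overlaps *slcf-2*. Without auxin replicates 3 and 4 neither passed (adjusted p = 0.100 for *egl-1* and 0.259 for *cht-1*). With each of the 16 libraries left out in turn, each of the 2 genes passed in 3 fits (adjusted p up to 0.126 for *egl-1* and 0.108 for *cht-1*), at log2 differences of 2.79 to 3.34 for *egl-1* and -2.28 to -1.87 for *cht-1*. A gene called in *syp-2::AID* worms alone is not shown to respond differently from N2 worms.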

How the data were processed

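RNA from whole young adult worms was sequenced in 16 libraries, of which 8 from *syp-2::AID* worms (4 with auxin, 4 untreated) are described here. The deposited values are raw counts of reads per gene, which the authors made with bcl2fastq 2.1.7, TopHat2 2.0.11 and featureCounts on the ce10 build. How reads were assigned to strands, and by which gene models, is not given in the sources used here, and genes that overlap may share reads. Of the 42048 genes in the table, 22995 had no count in the 8 libraries.

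Counts were filtered with filterByExpr (minimum count 10), scaled with TMM factors and tested with edgeR 4.0.16 in R 4.3.3 (robust quasi-likelihood test, Benjamini and Hochberg adjustment over all genes tested, threshold 0.05). CPM values use the scaled totals and are not divided by gene length, so levels are not compared between genes. The N2 libraries were fitted on their own, and the difference between strains was fitted on all 16. The study describes its replicates as biological. Nothing in the labels says that they came from separate cultures, so p-values measure the spread between these libraries. Gene names, exon lengths and overlaps came from a WBcel235 annotation, in which 38305 names were current and 1423 older, whereas 529 were ambiguous and 1791 unmatched. No sequence is shown and a planned description of promoters was not run. Calculations were tested on simulated data.

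Members and gene lists were chosen with earlier results of these data known, and 11 lists were grouped after their values were seen. Genes were named by a rule: those named in the study's RNAseq text, the 15 largest rises and falls, the 15 of smallest adjusted p without auxin replicates 3 and 4, up to 4 per list, and the 10 of smallest adjusted p for the strain difference. Chosen outside it after their values were seen were *cyp-35B1*, *cyp-35D1*, *gsto-1*, *acox-1*, *acdh-1*, *lbp-8*, *lbp-7*, *gba-1*, *asah-1*, *ftn-1*, *hrg-1*, *hrg-2*, *cysl-2* and *rhy-1*. Alternatives were other scaling factors, filters and samples, removal of the length trend, a replicate block, each library left out, DESeq2 1.42.0 and limma 3.58.1.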

Additional observations from a re-analysis of the deposited data

Results flagged for a closer look

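The response to auxin differed between *syp-2::AID* and N2 worms in *egl-1*, by 3.08 on the log2 scale, and in *cht-1*, by -2.09, as tested across all 16 libraries. In *syp-2::AID* worms all 4 auxin libraries were higher in *egl-1* and lower in *cht-1* than all 4 untreated ones. In 13.6% of all genes the 2 groups did not overlap either, and *cht-1* did not pass within these worms. Without auxin replicates 3 and 4 neither difference passed (adjusted p = 0.100 for *egl-1* and 0.259 for *cht-1*, edgeR). Most fits with 1 library left out lost both.

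In 11 of the 170 groups of 4 libraries screened, from 85 genes, 1 library lay far from the other 3, by a gap, as a share of the whole range, above the critical value of Dixon's test, which chance gives in about 1 of 20 groups. Among the auxin libraries, replicate 1 was high in *syp-2* (28.8 CPM against 24.2 to 24.8, gap 0.884) and low in F37H8.3 (16 against 19 to 19.5 CPM, gap 0.837). Auxin replicate 3 was low in *ugt-1* (4.85 against 7.55 to 8.05 CPM, gap 0.844) and *gst-6* (8.17 against 9.67 to 9.93 CPM, gap 0.85) and high in *acs-14* (58.2 against 54 to 54.5 CPM, gap 0.877), and replicate 4 was high in *clec-210* (18.4 against 14 to 14.6 CPM, gap 0.871). Among the untreated libraries, replicate 4 was high in *nhr-202* (4.15 against 2.88 to 3.03 CPM, gap 0.888), *fat-7* (425 against 380 to 386 CPM, gap 0.855) and *lbp-7* (8.72 against 6.12 to 6.43 CPM, gap 0.882). Untreated replicate 3 was high in *pmp-5* (87.4 against 81.4 to 82.2 CPM, gap 0.88), and untreated replicate 2 was low in *col-149* (2.08 against 3.09 to 3.14 CPM, gap 0.948).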

How the results depend on the processing

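The number of genes changed by auxin in *syp-2::AID* worms was 393 in the test reported, 763 (527 higher, 236 lower) with DESeq2, 674 with limma and sample quality weights and 848 with all 16 libraries in 1 fit, and 259 to 464 with 1 library left out. With a replicate block it was 276, but same-numbered libraries did not deviate together (correlations -0.38 to 0.10), so the numbers are not taken as pairs. Removal of the length trend gave 549, and other scaling and filters 325 to 399. The difference between strains was called in 2 genes, in 131 with DESeq2, 0 with limma, 1 with at least 10 counts in every library, 0 with a replicate block, 1 without auxin replicates 3 and 4, 4 with the length trend removed and 0 to 3 with 1 library left out. In N2 worms 1230 genes changed, 591 with a replicate block and 549 to 2418 with 1 library left out. Its split of 685 higher and 545 lower became 648 and 653 with the factors of DESeq2. The log2 fold change of *syp-2*, -0.01, turned to 0.0585 with sample quality weights, 0.0189 with 16 libraries, 0.0865 without auxin replicates 3 and 4 and 0.0748 without them in the 16-library fit, and ranged between -0.0687 and 0.0312 with 1 library left out.

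Of the 85 genes named with values, 82 were past the threshold, and none of the 82 reversed where tested. Of the 82, 75 passed under every alternative in which they were tested. Genes such as *egl-1*, K12D9.1 and F44G3.2 had too few untreated counts to be tested with at least 10 counts in every library. Many of the genes were named for large changes or a small adjusted p, which favours such counts. The cause of the shifts between alternatives was not tested. *col-149* lost its call in the 16-library fit (adjusted p = 0.0664), and *cyp-35B1* and *rhy-1* lost theirs only with the replicate block. Depth limits genes under about 1 CPM, such as *hrg-2*.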
